A study of Mus musculus with 22 samples.

Results

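The data cover Cdkn1a together with 9 other genes that slow or drive entry into the cell cycle, namely Cdkn1b, Cdkn1c, Cdkn2c, Ccnd1, Ccnd2, Ccnd3, Ccng1, Mdm2 and Gadd45a. The set was chosen by the higher intensity of Cdkn1a in TRα1+m than in wild-type hearts, so the genotype differences of its members are given as a description without a test, and counts of members past the threshold stand beside the share of all probe sets with nothing read from them. Each gene was read from its probe set with the highest mean, and each had 1 probe set. Of the 10 genes, 9 were measured among 19505 genes named on the array, all 9 passed the filter on low values, and Ccnd1 was not analysed here. RNA came from whole hearts of male C57/BL6NCr mice aged 3 to 6 months and kept at 30 °C. TRα1+m hearts came from 5 animals given T3 and 5 given water, wild-type hearts from 6 given T3 and 6 given water, and every heart was run on its own Clariom S Mouse array. TRα1+m mice carry 1 mutant copy of thyroid hormone receptor α1 in the germline, with the substitution R384C that weakens binding of the hormone. T3, the active thyroid hormone, was given at 0.5 mg/L with 0.01% albumin in the drinking water over 12 days, and controls drank albumin water without hormone. Wild-type animals of the study were either bought or bred as littermates, and the sources used here do not say which of them these arrays represent.

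Cyclins of the D type bind the kinases CDK4 and CDK6 and start the phosphorylation of the retinoblastoma protein, which releases E2F factors and lets a cell enter S phase. The inhibitors oppose this step. Cdkn1a (p21), Cdkn1b (p27) and Cdkn1c (p57) form the CIP/KIP family, which binds cyclin-CDK complexes broadly, and Cdkn2c (p18) belongs to the INK4 family, which binds CDK4 and CDK6. Cdkn1a is a classic target of the tumour suppressor p53, as are Mdm2, whose protein ubiquitinates p53, Ccng1, which encodes cyclin G1, and Gadd45a, a stress and DNA damage response gene. In the mouse heart most cardiomyocytes leave the cell cycle soon after birth, and thyroid hormone is among the signals linked to that exit.

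Promoter sequences were taken from RefSeq (build GRCm38.p6), as windows of 300 bases that run 5′ to 3′ along the gene with the annotated start after the first 250. Such windows were matched for 7 of the 9 measured genes, and the 6 shown belong to the genes on which the results turn. Capitals mark matches on either strand to the p53 half-site consensus, to the GC box GGGCGG (or CCGCCC) and to the thyroid hormone receptor half-site AGGTCA (or TGACCT). None of the marked matches overlap.
Cdkn1a, window 1, chr17:29090729-29091028, plus strand: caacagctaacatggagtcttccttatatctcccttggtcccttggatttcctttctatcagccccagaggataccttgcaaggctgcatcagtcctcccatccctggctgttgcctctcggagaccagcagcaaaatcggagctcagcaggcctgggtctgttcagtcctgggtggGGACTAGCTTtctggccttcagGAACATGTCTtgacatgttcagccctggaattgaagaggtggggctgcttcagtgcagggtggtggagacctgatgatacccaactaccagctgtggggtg
Cdkn1a, window 2, chr17:29093519-29093818, plus strand: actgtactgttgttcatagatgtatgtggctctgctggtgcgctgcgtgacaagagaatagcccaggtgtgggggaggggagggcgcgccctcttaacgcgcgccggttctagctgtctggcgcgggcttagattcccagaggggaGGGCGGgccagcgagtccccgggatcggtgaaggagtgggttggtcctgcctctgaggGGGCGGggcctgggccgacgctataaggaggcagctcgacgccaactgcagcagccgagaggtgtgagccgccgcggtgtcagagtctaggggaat
Cdkn1b, chr6:134920151-134920450, plus strand: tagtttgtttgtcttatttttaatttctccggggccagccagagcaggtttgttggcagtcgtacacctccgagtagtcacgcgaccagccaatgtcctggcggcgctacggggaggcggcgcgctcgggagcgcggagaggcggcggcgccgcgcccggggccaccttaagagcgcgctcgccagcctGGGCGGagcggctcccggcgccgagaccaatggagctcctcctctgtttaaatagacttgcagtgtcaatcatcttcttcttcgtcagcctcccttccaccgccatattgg
Mdm2, chr10:117710709-117711008, minus strand: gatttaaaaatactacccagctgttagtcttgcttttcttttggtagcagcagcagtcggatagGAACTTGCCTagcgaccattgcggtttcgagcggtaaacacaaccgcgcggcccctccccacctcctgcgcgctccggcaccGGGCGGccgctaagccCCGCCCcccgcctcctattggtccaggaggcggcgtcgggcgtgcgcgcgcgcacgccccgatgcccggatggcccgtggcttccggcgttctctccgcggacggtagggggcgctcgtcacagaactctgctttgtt
Gadd45a, chr6:67037358-67037657, minus strand: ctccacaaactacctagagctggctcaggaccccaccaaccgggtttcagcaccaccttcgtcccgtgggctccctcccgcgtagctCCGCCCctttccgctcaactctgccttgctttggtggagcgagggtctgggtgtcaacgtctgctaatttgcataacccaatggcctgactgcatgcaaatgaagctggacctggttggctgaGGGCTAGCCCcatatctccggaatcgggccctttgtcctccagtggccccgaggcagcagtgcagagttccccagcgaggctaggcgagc
Ccnd3, window 1, chr17:47504801-47505100, plus strand: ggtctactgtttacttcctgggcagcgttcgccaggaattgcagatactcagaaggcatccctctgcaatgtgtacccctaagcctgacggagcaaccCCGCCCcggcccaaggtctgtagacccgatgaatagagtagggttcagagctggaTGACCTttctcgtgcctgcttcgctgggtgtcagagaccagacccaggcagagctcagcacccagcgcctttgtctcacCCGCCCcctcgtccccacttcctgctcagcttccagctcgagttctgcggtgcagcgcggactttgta

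The upstream Cdkn1a window held 2 matches to the p53 half-site consensus, which began 73 and 51 bases before the annotated start, and no GC box. The downstream Cdkn1a window held 2 GC boxes and no p53 half-site. Mdm2 had 1 p53 half-site and 2 GC boxes, Gadd45a had 1 of each, and Ccng1 had 1 p53 half-site. A p53 half-site was present in 8.36% and a GC box in 35.7% of 32851 such windows of the mouse genome. The thyroid hormone receptor half-site, found in 16.3% of all windows, was present in 1 of 2 Ccnd3 windows, the one shown above. It was also present in 1 of 2 Cdkn2c windows and in neither Cdkn1a window. Matches to letters in these windows are a description and were not tied to any measurement.

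Deposited values are log2 intensities, and 21092 gene probe sets with a mean above 4 entered the tests. Negative-control probe sets, used here as the background level, had group means of their median of 6.54 in TRα1+m on T3, 6.70 in TRα1+m on water, 6.16 in wild type on T3 and 6.25 in wild type on water. The median of all gene probe sets was likewise higher in TRα1+m (6.99 to 7.09) than in wild-type arrays (6.46 to 6.63), so that genotype differences are also given after quantile normalization over all 22 arrays. Water array 3 and T3 array 6 of wild type lay apart from their groups on the leading components. The TRα1+m water arrays were also widely spread, from 40.46 (array 2) to 74.63 (array 5) on the first component. On the third, these arrays stood at 29.28 and -23.89. Thra, the receptor gene itself, averaged 11.17 ± 0.21 in TRα1+m on T3, 12.28 ± 0.13 in TRα1+m on water, 9.78 ± 0.12 in wild type on T3 and 10.73 ± 0.30 in wild type on water (SD). Its probe set does not separate the mutant from the normal allele. Cardiomyocyte markers were all above the negative-control median in every group, and lymphocyte markers lay below it for at least 6 of 7. Levels of different genes come from different probes and are not compared.

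**Figure D1:**
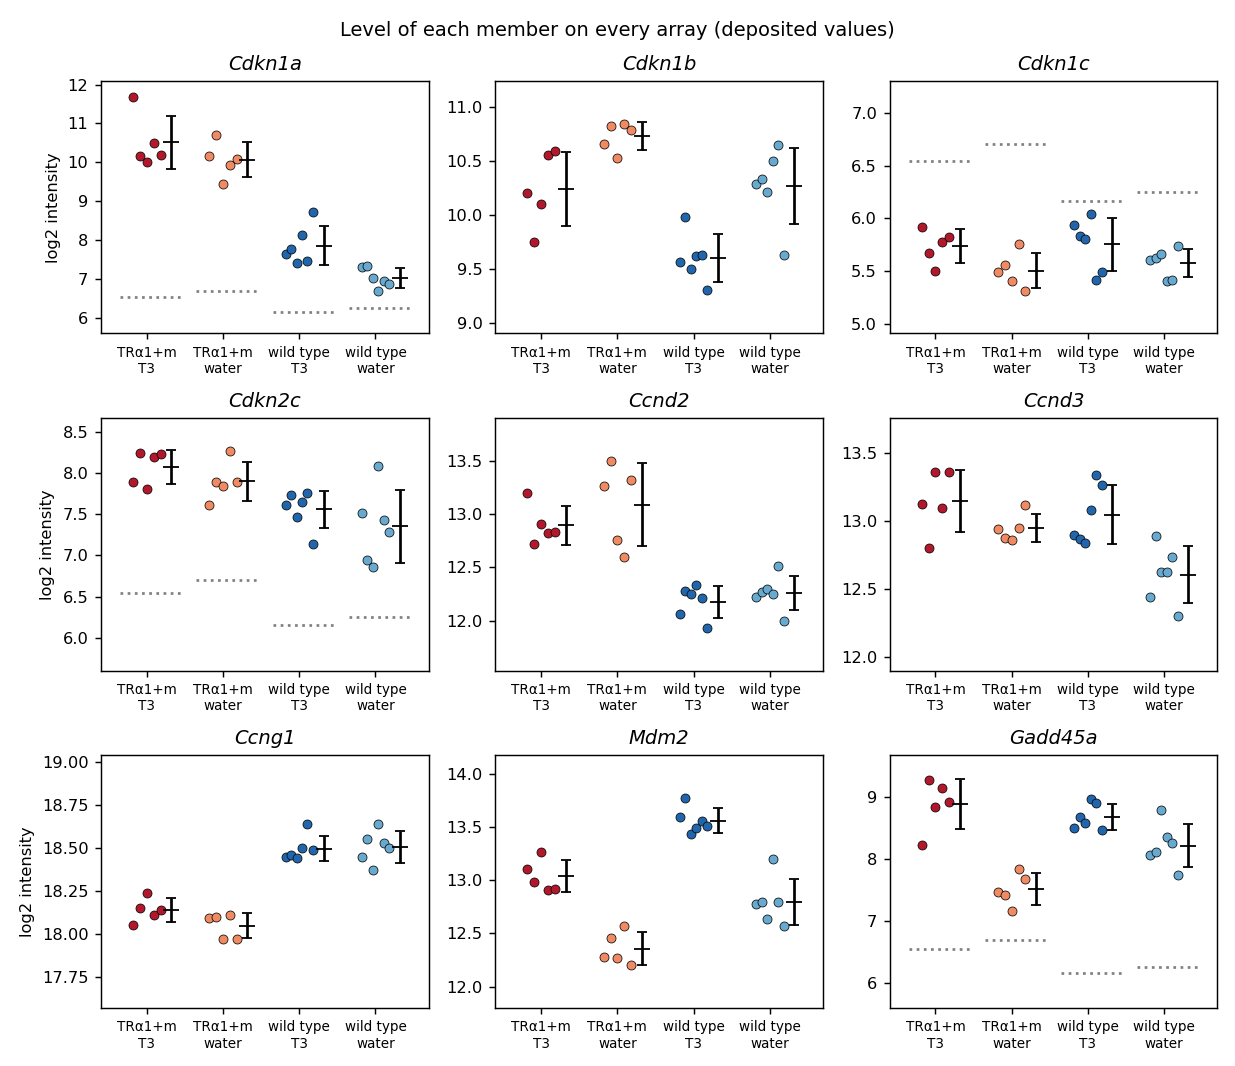
Deposited log2 intensity (vertical axis) of the 9 measured genes in each group, 1 point per array, with the group mean and SD in black and the mean negative-control median as a dotted line where it lies in range. All TRα1+m arrays sit above all wild-type arrays for Cdkn1a and Ccnd2 and below them for Ccng1, while Cdkn1c lies under the negative-control line in every group.

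Cdkn1a was the gene with the widest separation of genotypes in the set. On T3 the TRα1+m arrays read 11.69, 10.15, 10.02, 10.50 and 10.19, and wild-type arrays ranged between 7.40 and 8.72 with a median of 7.70. On water the TRα1+m arrays read 10.15, 10.71, 9.45, 9.92 and 10.09, and wild-type arrays lay between 6.69 and 7.33 with a median of 6.98. The lowest TRα1+m array was therefore above the highest wild-type array, whatever the treatment. The mean difference was 3.04 ± 0.27 on water (SE of the limma fit) and 2.65 ± 0.27 on T3, both higher in TRα1+m. After quantile normalization the differences were 2.70 ± 0.27 and 2.34 ± 0.27. Wild-type hearts on water were close to the range of control probes for this gene, with 59.2% of negative-control probe sets below the lowest and 72.8% below the highest array, against 91.2% to 96.0% in TRα1+m on water, so no fold change is given. TRα1+m hearts on water also read 2.21 above wild-type hearts on T3, or 1.90 after quantile normalization.

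The response of Cdkn1a to T3 was not used in choosing the genes. In wild type Cdkn1a was 0.83 ± 0.26 higher on T3 than on water (95% interval 0.30 to 1.36, limma adjusted p = 0.034). All 6 T3 arrays exceeded the highest water array, and the T3 array that read 8.72 was 1 of the 2 arrays that lie apart. The call was lost in 8 of 34 alternatives. Leaving out that array gave 0.65 (limma adjusted p = 0.096), and leaving out both arrays that lie apart gave 0.65 (limma adjusted p = 0.13). It was also lost without wild-type water array 3, 4, 5 or 6 or T3 array 4, at 0.76 to 0.82. In TRα1+m the difference was 0.44 ± 0.28 (95% interval -0.14 to 1.03, limma adjusted p = 0.36), the groups overlapped, and without T3 array 1, at 11.69, it was 0.15. The difference between these effects, the genotype by T3 interaction, was -0.38 ± 0.38 (95% interval -1.17 to 0.41, limma adjusted p = 0.90), so that the responses of the genotypes were not shown to differ.

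Of the other CIP/KIP inhibitors, Cdkn1b was lower on T3 in wild type and Cdkn1c was not above background. Cdkn1b, best known for holding quiescent cells out of the cycle, read 10.20, 9.75, 10.10, 10.55 and 10.59 in TRα1+m on T3 and 10.66, 10.82, 10.53, 10.84 and 10.79 in TRα1+m on water. Wild-type arrays ranged between 9.30 and 9.98 on T3 (median 9.59) and between 9.63 and 10.65 on water (median 10.31). T3 arrays thus lay low in both genotypes, although groups overlapped in each. Cdkn1b fell by 0.67 on T3 in wild type (SE 0.16, 0.63-fold, limma adjusted p = 0.0051), a call that was kept in all 34 alternatives. In TRα1+m the difference was -0.49 ± 0.17 (0.712-fold, limma adjusted p = 0.060) as deposited and -0.51 ± 0.15 after quantile normalization (limma adjusted p = 0.019), and it was called in 7 of 34 alternatives. The interaction was 0.18 ± 0.24 (limma adjusted p = 0.94). Between genotypes Cdkn1b differed by 0.46 ± 0.17 on water and 0.64 ± 0.17 on T3, or 0.25 ± 0.14 and 0.40 ± 0.14 after quantile normalization, and centring on the array median gave -0.04 on water.

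Cdkn1c, an imprinted growth inhibitor, averaged 5.74 ± 0.16 in TRα1+m on T3, 5.51 ± 0.17 in TRα1+m on water, 5.76 ± 0.25 in wild type on T3 and 5.57 ± 0.13 in wild type on water. No array rose above its own negative-control median, so the gene was not distinguishable from background at this sensitivity and no fold change is read. Cdkn2c, the INK4 member, averaged 8.08 ± 0.21 in TRα1+m on T3, 7.90 ± 0.24 in TRα1+m on water, 7.56 ± 0.23 in wild type on T3 and 7.36 ± 0.44 in wild type on water. Its T3 differences were 0.18 ± 0.19 in TRα1+m (limma adjusted p = 0.64) and 0.21 ± 0.17 in wild type (limma adjusted p = 0.54). The genotype difference of Cdkn2c, 0.55 ± 0.18 on water and 0.52 ± 0.18 on T3 as deposited, was 0.13 ± 0.17 and 0.09 ± 0.17 after quantile normalization.

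Of the D cyclins, Ccnd2 separated the genotypes and Ccnd3 moved with T3 in wild type. Ccnd2 read 13.20, 12.72, 12.91, 12.82 and 12.83 in TRα1+m on T3 and 13.26, 13.50, 12.76, 12.60 and 13.32 in TRα1+m on water. Wild-type arrays lay between 11.93 and 12.33 on T3 and between 12.00 and 12.51 on water, with medians of 12.23 and 12.26. Every TRα1+m array was above every wild-type array. The genotype difference was 0.83 ± 0.14 on water (1.78-fold) and 0.72 ± 0.14 on T3 (1.65-fold), or 0.73 ± 0.14 and 0.60 ± 0.14 after quantile normalization. Centred on the array median the same differences were 0.33 and 0.22. T3 gave -0.19 ± 0.15 in TRα1+m (limma adjusted p = 0.49) and -0.08 ± 0.14 in wild type (limma adjusted p = 0.80), with 95% intervals of -0.50 to 0.12 and -0.37 to 0.20.

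Ccnd3 averaged 13.15 ± 0.23 in TRα1+m on T3, 12.95 ± 0.10 in TRα1+m on water, 13.05 ± 0.22 in wild type on T3 and 12.61 ± 0.21 in wild type on water. Wild-type T3 arrays ranged between 12.84 and 13.34 and wild-type water arrays between 12.30 and 12.89, so that the groups met at the edge. Ccnd3 rose by 0.45 ± 0.12 on T3 in wild type (1.36-fold, limma adjusted p = 0.016), and without both arrays that lie apart the value was 0.41 (limma adjusted p = 0.056). In TRα1+m the difference was 0.20 ± 0.14 (limma adjusted p = 0.40), and the interaction was -0.25 ± 0.18 (limma adjusted p = 0.83). The genotype difference on water changed sign with the scaling, at 0.34 ± 0.13 as deposited, 0.26 ± 0.12 after quantile normalization, -0.15 centred on the array median and -0.11 centred on negative controls.

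Unlike Cdkn1a, the p53 targets Mdm2 and Ccng1 read lower in TRα1+m than in wild-type hearts, while Mdm2 rose on T3 in both genotypes and Gadd45a in TRα1+m. Mdm2 read 13.11, 12.99, 13.27, 12.91 and 12.92 in TRα1+m on T3 and 12.28, 12.46, 12.27, 12.57 and 12.20 in TRα1+m on water. Wild-type arrays lay between 13.44 and 13.78 on T3 (median 13.53) and between 12.57 and 13.20 on water (median 12.79). T3 arrays exceeded all water arrays in both genotypes, and TRα1+m arrays read below or level with the lowest wild-type array of the same treatment. Mdm2 rose by 0.69 ± 0.12 on T3 in TRα1+m (1.61-fold, limma adjusted p = 0.0002) and by 0.76 ± 0.11 in wild type (1.70-fold, limma adjusted p = 2.4e-05). The interaction was -0.08 ± 0.16, with a 95% interval of -0.41 to 0.26 (limma adjusted p = 0.97). Between genotypes Mdm2 differed by -0.45 ± 0.12 on water and -0.52 ± 0.12 on T3, or -0.56 ± 0.11 and -0.60 ± 0.11 after quantile normalization. Mdm2 in TRα1+m on T3 (13.04 ± 0.15) read 0.24 above its level in wild type on water (12.80 ± 0.22), or 0.17 above after quantile normalization. Array medians of these groups were 7.02 to 7.08 and 6.46 to 6.63, and the difference centred on them was not computed.

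Gadd45a had the largest T3 response among the measured members, and it was in TRα1+m. Arrays of TRα1+m read 8.23, 9.27, 8.83, 9.15 and 8.91 on T3 and 7.47, 7.41, 7.16, 7.84 and 7.67 on water. In wild type they lay between 8.47 and 8.97 on T3 (median 8.63) and between 7.74 and 8.78 on water (median 8.18). On water 60.5% to 73.0% of negative-control probe sets lay below the TRα1+m arrays. The TRα1+m groups were fully apart and the wild-type groups overlapped. Gadd45a rose by 1.37 ± 0.19 on T3 in TRα1+m (limma adjusted p = 1.1e-05), and the difference in wild type was 0.47 ± 0.17 (1.38-fold, limma adjusted p = 0.084, called in 6 of 34 alternatives). The interaction of 0.90 ± 0.26 had an unadjusted limma p of 0.0018 and an adjusted p of 0.21. It passed without TRα1+m T3 array 1, where it was 1.06 (limma adjusted p = 0.045), and in none of the other 32 alternatives. Between genotypes Gadd45a differed by -0.70 ± 0.18 on water and 0.20 ± 0.18 on T3 as deposited, and by -1.12 ± 0.18 and -0.16 ± 0.18 after quantile normalization, so that its sign on T3 depended on the scaling.

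Ccng1 averaged 18.14 ± 0.07 in TRα1+m on T3, 18.05 ± 0.07 in TRα1+m on water, 18.49 ± 0.07 in wild type on T3 and 18.51 ± 0.09 in wild type on water. The highest value of any probe set on any array was 19.93. All TRα1+m arrays were below all wild-type arrays of the same treatment, by 0.46 ± 0.08 on water and 0.36 ± 0.08 on T3 on average, or 0.43 and 0.26 after quantile normalization. T3 gave 0.09 ± 0.09 in TRα1+m (limma adjusted p = 0.61) and -0.01 ± 0.08 in wild type (limma adjusted p = 0.96).

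**Figure D2:**
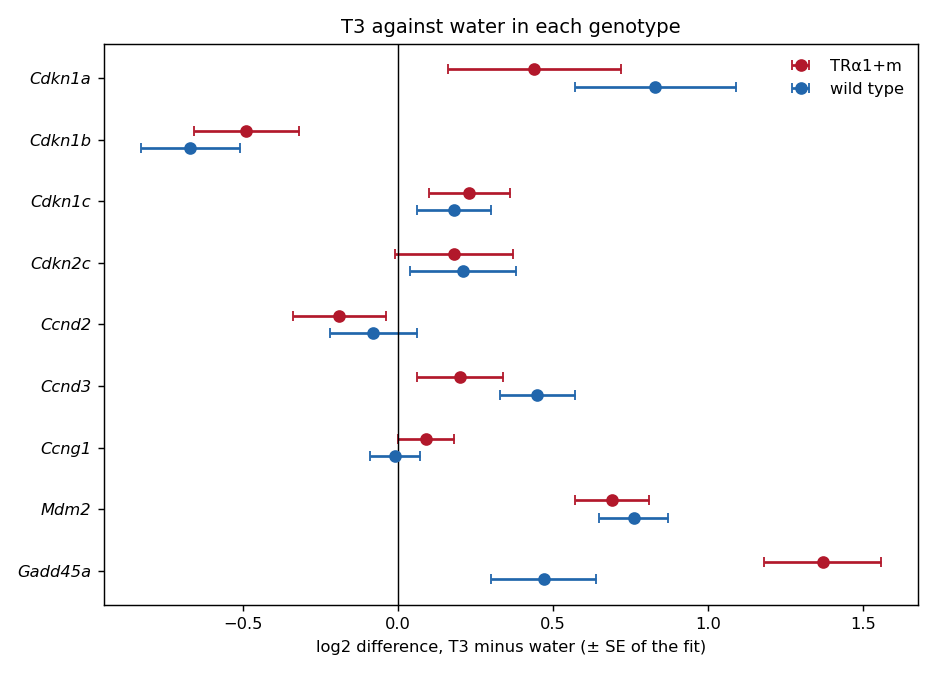
Log2 difference of T3 minus water for each measured gene (horizontal axis) with the SE of the limma fit, in TRα1+m (red, n = 5 per group) and wild type (blue, n = 6 per group). Mdm2 stands near 0.7 in both genotypes, Gadd45a at 1.37 in TRα1+m against 0.47 in wild type, and Cdkn1b below 0 in both.

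Counted over the set, 2 of 9 genes were called on T3 against water in TRα1+m, both higher (Mdm2 and Gadd45a), where 15.2% of all probe sets were called (8.24% higher, 6.92% lower). In wild type 4 of 9 were called, with Cdkn1a, Ccnd3 and Mdm2 higher and Cdkn1b lower, against 12.7% of all probe sets (6.26% higher, 6.49% lower). Groups did not overlap for 2 of 9 genes in TRα1+m, against 13.1% of all probe sets, and for 2 of 9 in wild type, against 7.37%. The median T3 difference of the 9 genes was 0.20 in TRα1+m and 0.21 in wild type, and over all probe sets it was -0.02 and 0.01. The interaction was called by limma for 0 of 9 genes and for 0.275% of all probe sets. At an unadjusted p below 0.05 it covered 1 gene of the set, Gadd45a, and 7.56% of all probe sets, and the fit without moderation called 0 of the 9 as well. Both T3 comparisons rest on separate arrays.

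The choice of genes rested on the genotype contrast, so its counts are printed only beside those of all probe sets. They were 8 of 9 past the threshold on water (5 higher, 3 lower in TRα1+m) where 54.6% of all probe sets were called (46.5% higher, 8.12% lower). On T3 they were 6 of 9 (4 higher, 2 lower) beside 50.9% (44.6% higher, 6.30% lower). After quantile normalization they were 6 of 9 on water (2 higher, 4 lower) beside 39.9% (18.9% higher, 21.0% lower), and 6 of 9 on T3 (3 higher, 3 lower) beside 35.6% (16.7% higher, 19.0% lower). Groups did not overlap for 4 of 9 genes on water, beside 28.0% of all probe sets, and for 5 of 9 on T3, beside 29.1%. The median of all probe sets was 0.36 higher in TRα1+m on water and 0.35 on T3 as deposited. Relative to those medians, the difference was 2.68 on water and 2.30 on T3 for Cdkn1a and 0.47 and 0.37 for Ccnd2. It was -0.80 and -0.87 for Mdm2, and -0.82 and -0.71 for Ccng1.

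**Figure D3:**
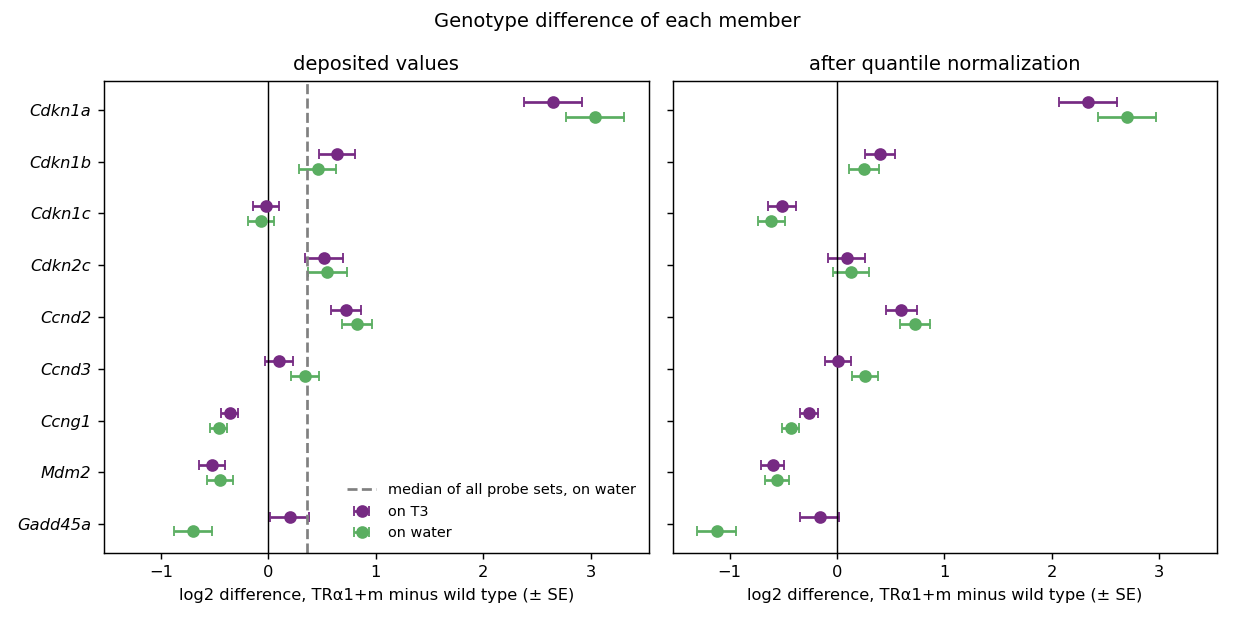
Log2 difference of TRα1+m minus wild type for each measured gene (horizontal axis) with the SE of the fit, on T3 (purple) and on water (green), as deposited (left) and after quantile normalization (right). Cdkn1a stands at 2.65 and 3.04 as deposited and at 2.34 and 2.70 after normalization, Ccnd2 also lies above 0 in both panels, and Mdm2 and Ccng1 lie below 0 in both.

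Markers of other cell types moved with T3 in these bulk samples, where fewer cells of a type and less RNA per cell cannot be told apart. All 9 macrophage markers were called higher on T3 in both genotypes, and the log2 of their summed intensity ranged between 14.83 and 15.24 in TRα1+m on T3, 12.79 and 13.28 in TRα1+m on water, 14.87 and 15.05 in wild type on T3 and 13.41 and 14.21 in wild type on water. Fibroblast markers were called higher on T3 for 4 of 8 in TRα1+m and 6 of 8 in wild type. Their log2 sums lay between 17.95 and 18.15 in TRα1+m on T3, 17.67 and 18.05 in TRα1+m on water, 17.96 and 18.17 in wild type on T3 and 17.53 and 17.96 in wild type on water. Endothelial markers were called higher for 6 of 8 in each genotype, and smooth muscle and pericyte markers for 3 of 8. The log2 sums of the latter lay between 16.50 and 16.96 in TRα1+m on T3, 15.64 and 16.13 in TRα1+m on water, 16.44 and 16.77 in wild type on T3 and 15.26 and 16.01 in wild type on water. Not every marker of that list went with the sum. Myh11 averaged 8.06 on T3 and 8.46 on water in TRα1+m, and 7.98 and 8.64 in wild type. Tagln and Cnn1 also averaged lower on T3 in wild type. Of all probe sets, 8.24% were called higher on T3 in TRα1+m and 6.26% in wild type. The part of these cells in the T3 differences of Cdkn1a, Ccnd3, Mdm2 and Gadd45a was not tested.

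Genes around p53 were compared next. Of 31 tested p53 target genes outside the set, 0 were called higher and 5 lower on T3 in TRα1+m, beside 8.24% and 6.92% of all probe sets. In wild type 0 were called higher and 3 lower, beside 6.26% and 6.49%. Perp, a desmosomal p53 target, fell by 1.57 (SE 0.13) in TRα1+m and by 1.40 (SE 0.12) in wild type, with limma adjusted p of 4.6e-09 and 1e-08. Ddb2, a sensor of ultraviolet DNA damage, fell by 0.72 in TRα1+m (limma adjusted p = 0.00097). Rrm2b, a ribonucleotide reductase subunit, fell by 0.45 in TRα1+m and by 0.46 in wild type (limma adjusted p = 0.039 and 0.023), and Sesn1, a stress-responsive sestrin, fell by 0.41 in wild type (limma adjusted p = 0.027).

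Between genotypes on water, 16 of the 31 p53 target genes were called higher and 2 lower in TRα1+m as deposited, beside 46.5% and 8.12% of all probe sets. After quantile normalization 6 were called higher and 7 lower, beside 18.9% and 21.0%. The median of the 31 was 0.36 as deposited and -0.02 after normalization, and over all probe sets it was 0.36 and -0.02. Higher under both scalings were 6 genes, including Ddit4, an inhibitor of mTOR signalling, at 1.28 ± 0.24 (0.84 after normalization), Fas, a death receptor, at 0.86 ± 0.18 (0.48), and Plk2, a polo-like kinase, at 0.71 ± 0.16 (0.52). Their limma adjusted p were 0.00011, 0.00033 and 0.00076 as deposited, and 0.007, 0.037 and 0.0099 after quantile normalization. Lower under both were 2 genes, Sesn1 at -0.44 (-0.54 after normalization) and Ei24 at -0.34 (-0.46), with limma adjusted p of 0.0063 and 0.025 as deposited. Among 13 p53 regulators, 4 were called higher and 3 lower as deposited, and 0 higher and 4 lower after quantile normalization, beside the same shares. Under both scalings 0 were higher and 3 lower, namely the ubiquitin ligase Cop1 at -0.65 ± 0.10, the deubiquitinase Usp7 at -0.59 ± 0.12 and the kinase Hipk2 at -0.34 ± 0.12. As deposited, their limma adjusted p were 1.1e-05, 0.00022 and 0.020. The share of all probe sets called under both scalings was not counted, so such counts have no baseline. Chek2, the checkpoint kinase, rose on T3 by 0.52 ± 0.13 in TRα1+m and 0.46 ± 0.12 in wild type (limma adjusted p = 0.0087 and 0.012).

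Partners of the D cyclins, other CDKs and the retinoblastoma-E2F axis gave 29 tested genes, of which 5 were called higher and 3 lower on T3 in TRα1+m, beside 8.24% and 6.92% of all probe sets. In wild type 2 were called higher and 3 lower, beside 6.26% and 6.49%. Fbxw7, the substrate adaptor of a ubiquitin ligase that degrades cyclin E, fell by 1.11 (SE 0.16) on T3 in TRα1+m and by 0.49 (SE 0.15) in wild type (limma adjusted p = 2.4e-05 and 0.032). It was 1.20 ± 0.16 higher in TRα1+m than in wild type on water, or 1.04 after quantile normalization. Ccna2, the S phase cyclin, was called higher on T3 in TRα1+m (limma adjusted p = 0.0022), with 6.98 ± 0.65 on T3 and 5.27 ± 0.71 on water, where the mean negative-control medians were 6.54 and 6.70. Its water level lay under that median, so no size of the change is read. Rbl2, the retinoblastoma relative p130, fell by 0.36 on T3 in wild type (limma adjusted p = 0.0051), and it was 0.55 lower in TRα1+m than in wild type on water, or 0.71 lower after normalization. Between genotypes on water, 10 of the 29 were called higher and 3 lower as deposited, beside 46.5% and 8.12% of all probe sets. After quantile normalization 5 were higher and 8 lower, beside 18.9% and 21.0%.

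Among other brakes on division, the genes called on T3 were all lower. Of 15 tested genes, 0 were called higher and 4 lower in each genotype, beside 6.92% of all probe sets lower in TRα1+m and 6.49% in wild type. Ccng2, among those lower in TRα1+m, is also counted among the p53 target genes above. Meis1, a homeobox factor linked to cardiomyocyte cell cycle exit in the mouse, fell by 0.85 in TRα1+m and 0.69 in wild type (limma adjusted p = 0.0003 and 0.0013). Tob1, an antiproliferative protein, fell by 0.69 in TRα1+m and 0.36 in wild type (limma adjusted p = 0.00045 and 0.045), and Ndrg1, a stress-induced growth suppressor, fell by 0.86 in TRα1+m and 0.43 in wild type (limma adjusted p = 9.7e-05 and 0.029). Tob1 was also 1.16 ± 0.12 higher in TRα1+m than in wild type on water, or 1.00 after quantile normalization (limma adjusted p = 1.6e-07 and 4.5e-07). Between genotypes on water, 6 of the 15 were called higher and 2 lower as deposited, beside 46.5% and 8.12% of all probe sets. After quantile normalization 4 were higher and 3 lower, beside 18.9% and 21.0%. Wee1 was among those lower, at -0.84 ± 0.21, or -1.05 after normalization. Differences between genotypes in the T3 effects on this list were called for 0 of the 15 genes by limma.

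Among cell division genes, those called on T3 were all higher, with 13 of 25 higher and 0 lower in TRα1+m and 7 of 25 higher and 0 lower in wild type, and medians over the list of 0.83 and 0.54. Of all probe sets 8.24% were called higher in TRα1+m and 6.26% in wild type, with medians of -0.02 and 0.01. Some called genes lay under the mean negative-control median on water, such as Kif20a in TRα1+m (5.75 against 6.70) and Kif11 in wild type (5.6 against 6.25). The list medians include such genes and are not read as sizes of change. Mki67, a marker of cycling cells, averaged 10.33 ± 0.71 in TRα1+m on T3, 7.76 ± 0.67 in TRα1+m on water, 8.91 ± 0.41 in wild type on T3 and 7.28 ± 0.71 in wild type on water. Its T3 difference was 2.57 ± 0.36 in TRα1+m and 1.62 ± 0.33 in wild type (limma adjusted p = 1.3e-05 and 0.0012). Pcna, the DNA polymerase clamp, was not called on T3, at 0.22 ± 0.14 in TRα1+m and 0.18 ± 0.13 in wild type, and was 0.44 ± 0.14 higher in TRα1+m than in wild type on water (0.35 after normalization). Between genotypes on water, 13 of 25 division genes were called higher as deposited, beside 46.5% of all probe sets, and 1 higher and 3 lower after quantile normalization, beside 18.9% and 21.0%. None of the interactions of the 25 genes was called by limma. The macrophage, fibroblast and endothelial markers called on T3 moved in the same direction, as did the sum of smooth muscle and pericyte markers, though not each of the latter. The part of these cells in the values of the division genes was not tested.

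FoxO factors are a further input to Cdkn1a, Cdkn1b and Gadd45a. Of 17 tested FoxO target genes, 0 were called higher and 4 lower on T3 in TRα1+m, beside 8.24% and 6.92% of all probe sets. In wild type 2 were called higher and 4 lower, beside 6.26% and 6.49%. Those higher in wild type were Irs2, an insulin receptor substrate, at 0.62 ± 0.16 and Sesn3, a sestrin, at 0.48 ± 0.16 (limma adjusted p = 0.010 and 0.047). Bcl2l11, the pro-apoptotic BIM, fell by 1.69 in TRα1+m and 0.80 in wild type (limma adjusted p = 2.4e-06 and 0.0056), and it was 1.74 ± 0.20 higher in TRα1+m than in wild type on water (1.40 after normalization). Klf15, a metabolic transcription factor, fell by 1.03 in TRα1+m and 1.15 in wild type (limma adjusted p = 0.00035 and 3.9e-05), and Foxo3 itself fell by 0.72 in TRα1+m and 0.87 in wild type (limma adjusted p = 0.011 and 0.0011). Foxo1 was 0.84 ± 0.18 lower in TRα1+m on water, or 1.25 lower after normalization. Between genotypes on water, 4 of the 17 were called higher and 6 lower as deposited, beside 46.5% and 8.12% of all probe sets. After quantile normalization 1 was higher and 8 lower, beside 18.9% and 21.0%. Bcl2l11 alone was higher under both scalings. Among the 6 lower under both were Fbxo32 at -0.79 (-0.90 after normalization) and Gabarapl1 at -0.69 (-0.81).

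**Figure D4:**
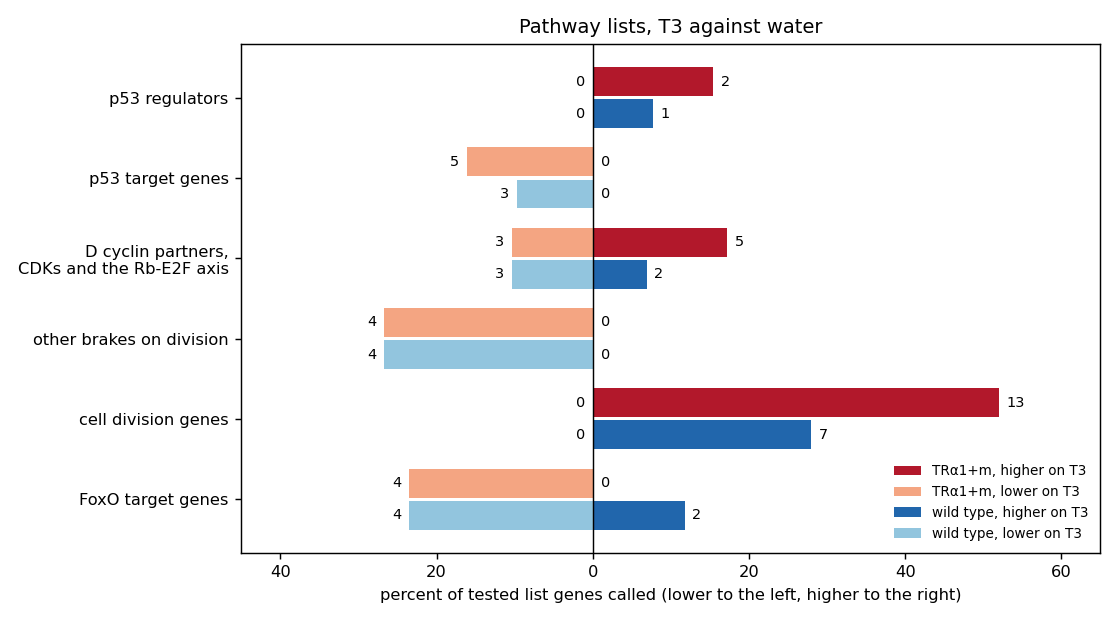
Percent of the tested genes of each list that limma called on T3 against water (horizontal axis), lower to the left and higher to the right, in TRα1+m (red) and wild type (blue), with the number of genes at each bar. Cell division genes lie to the right, with 13 and 7 of 25 called, and the other brakes lie to the left, with 4 of 15 in each genotype.

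Genes whose pattern over the 22 arrays was most like that of Cdkn1a were found by Pearson correlation of quantile-normalized values. Such correlations describe arrays that share genotype and treatment groups, and they carry no p. The highest were Pfn1 (profilin 1, r = 0.953), Tgoln1 (a trans-Golgi protein, 0.951), Cinp (a CDK2-interacting protein, 0.946), Rps27l (a ribosomal protein paralog, 0.942), M6pr (the mannose 6-phosphate receptor, 0.941), Cenpm (a centromere protein, 0.928), Aspn (asporin, 0.925) and Mrfap1 (0.925). Rps27l, described elsewhere as a p53 target, averaged 11.55 in TRα1+m on T3, 11.14 in TRα1+m on water, 9.87 in wild type on T3 and 9.79 in wild type on water. Cenpm averaged 7.04, 6.47, 4.93 and 4.73 in the same order of groups, against mean negative-control medians of 6.54, 6.70, 6.16 and 6.25, so that its mean lay above that median in TRα1+m on T3 only. After the group means were subtracted, the highest correlations with Cdkn1a were those of Nrap (0.821), Plp2 (0.819), Pde8a (0.796), Agfg1 (0.792) and Rcan1 (0.789), and Pfn1 then stood at 0.574.

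Within the set, the correlation with Cdkn1a over the 22 arrays was 0.83 for Ccnd2, 0.44 for Ccnd3, 0.20 for Cdkn1b, 0.14 for Cdkn2c, -0.36 for both Mdm2 and Gadd45a, -0.67 for Cdkn1c and -0.83 for Ccng1. With the group means subtracted it was 0.44 for Ccnd2, -0.04 for Mdm2, -0.34 for Gadd45a and -0.26 for Ccng1.

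**Figure D5:**
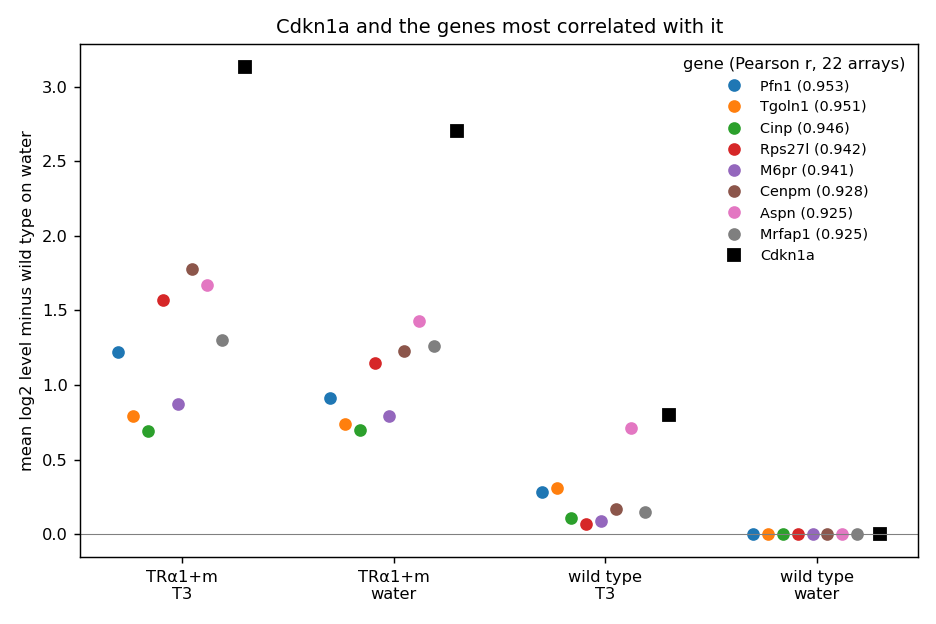
Group mean of the quantile-normalized log2 level minus that of wild type on water (vertical axis) for Cdkn1a (black squares) and the 8 genes most correlated with it over 22 arrays, in the 4 groups. Cdkn1a stands 3.13 above wild type on water in TRα1+m on T3, and the 8 genes stand above their own wild-type level on water in both TRα1+m groups, by less than Cdkn1a does.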

How the data were processed

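RNA of whole hearts was hybridised to 22 Clariom S Mouse arrays, grouped by the sample titles. The authors used Transcriptome Analysis Console 4.0.1 on the scans. Their processing notes in the labels give RMA as the method, a background correction with normalization and probe summary. The deposited values are log2 intensities per probe set, 22206 of them for genes, and joint normalization of the 22 arrays is not stated in the sources used. Of the gene probe sets, 19572 name 1 gene. The number of arrays limits precision. Replicates had at most 0.0312% identical values, and each was taken as a separate animal.

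A mean for each of 4 groups was fitted with limma 3.58.1 in R 4.3.3 (lmFit, eBayes) to probe sets with a mean above 4, and p-values were adjusted by Benjamini-Hochberg over all 21092, with calls below 0.05. Tested on simulated data, the fit recovered 80% of changes of 1 (log2) in the TRα1+m T3 contrast, 83% in the wild-type T3 contrast and 53.5% in the interaction. For changes of 0.5 it recovered 10%, 13.5% and 0.5%. The simulated data held fewer changed probe sets than were called in either T3 contrast and more than were called in the interaction. This affects the adjusted p, so recovery in each of these contrasts may differ from these figures. Alternatives were quantile normalization, centring on gene or negative-control medians, other filters, trended variance, array weights, a replicate block, no moderation with two-stage adjustment, separate fits per contrast and leaving out each array. Leaving out both wild-type arrays that lie apart (T3 array 6, water array 3) was added after the data were seen.

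The genes and lists were chosen with earlier results of these data known. Lists share some genes, among them Ppm1d, which is counted both as a p53 target and as a p53 regulator. Named were all members, up to 4 called genes per list and T3 contrast, list genes called under both scalings between genotypes, up to 2 uncalled genes with the highest mean, and the genes most correlated with Cdkn1a (8 over all arrays, 5 within groups). Fewer appear in the text. Atrial, smooth muscle, erythroid, adipocyte and skeletal muscle markers were also tested. On T3 they gave 0 of 5, 3 of 8, 0 of 2, 0 of 6 and 2 of 9 calls in TRα1+m, all higher, and 0 of 5, 3 of 8 higher, 0 of 2, 0 of 6 and 1 of 9 lower in wild type. Cardiomyocyte markers gave 1 of 9 higher in TRα1+m and 1 of 9 lower in wild type, and lymphocyte markers 0 of 6 in each.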

Additional observations from a re-analysis of the deposited data

Results flagged for a closer look

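Of 36 sets of arrays, 1 for each measured gene and group, 3 held an array far from the others by Dixon's criterion, and chance alone picks out about 1 in 20 groups. Cdkn1a read 11.69 in TRα1+m T3 array 1, where the next highest array of the group read 10.50 (gap 0.715 of the range). Ccng1 read 18.64 in wild-type T3 array 5, beside 18.50 for the next (0.701). Mdm2 read 13.20 in wild-type water array 4, beside 12.80 for the next (0.628).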

How the results depend on the processing

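Over the alternatives, 1276 of 1347 values of the measured genes other than Cdkn1a kept their direction and side of the threshold, or moved by less than the replicate SD, and the causes of the others were not tested. Cdkn1a lost its T3 call in wild type in 8 of 34 alternatives. There it was 0.83 without moderation (two-stage adjusted p = 0.056) and 0.65 without both arrays that lie apart, and it lay between 0.65 and 0.92 with single arrays left out. Ccnd2 turned to 0.01 and Ccng1 to 0.08 with negative-control centring, and Ccng1 to 0.02 without 1 array (range -0.04 to 0.02). Gadd45a in wild type was called in 6 of 34 alternatives. Between genotypes on water, centring on the gene median gave 2.54 for Cdkn1a, -0.04 for Cdkn1b and -0.15 for Ccnd3, and negative-control centring gave -0.11 for Ccnd3. With the gene median centred, 5 genes of the set were past the threshold (1 higher, 4 lower), from which nothing is read. Beside them stood 9088 of 21092 probe sets (2786 higher, 6302 lower). On T3, centring on the gene median gave 2.16 for Cdkn1a. A filter at a mean of 6, which drops Cdkn1c, left 7171 probe sets called between genotypes on water and 6848 on T3, beside 11516 and 10738. The interaction was called for 58 probe sets, and for 88 after quantile normalization, 99 with a variance trend, 100 with array weights, 87 with negative-control centring and 40 to 85 with single arrays left out. Interactions near 0 changed sign for Cdkn2c (0.05 with negative-control centring, -0.17 to 0.07 with arrays left out), Mdm2 (0.0 with negative-control centring) and Cdkn1c (-0.01 with array weights, -0.02 without both arrays that lie apart, -0.02 to 0.11 with arrays left out). The set had 0 to 1 interaction calls with arrays left out, the 1 being Gadd45a without TRα1+m T3 array 1. Negative-control centring turned the T3 split to 3185 higher and 774 lower in TRα1+m (1738 and 1460 as deposited) and 1892 and 893 in wild type (1320 and 1368), and quantile normalization turned the genotype split to 3985 and 4436 on water (9803 and 1713) and 3515 and 4002 on T3 (9410 and 1328). Groups share replicate numbers, and the main fit pairs no arrays by them. In the wild-type T3 contrast, deviations of same-numbered arrays correlated at 0.0311 to 0.293, and 2 of 6 arrays correlated best with their own number. In the other contrasts the correlations lay between -0.205 and 0.27. Whether the numbers mark pairs was not settled. With the replicate block, Cdkn1a gave 0.83 on T3 in wild type (limma adjusted p = 0.024), and 2715 probe sets were called there and 3295 in TRα1+m. Gadd45a on T3 in wild type (0.47, limma adjusted p = 0.046) and Cdkn1b in TRα1+m (-0.49, limma adjusted p = 0.022) then passed. Probes near background, as for Cdkn1c and for Cdkn1a in wild type on water, limit what can be read as a fold change.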
